A study of Homo sapiens with 6 samples.

Results

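The genes of the nuclear pore complex and of the transport receptors that pass through it were followed in AGS cells, an established human gastric adenocarcinoma line, after knockdown of the pseudogene RNA ANXA2P1. The members were the rows of the gene table whose symbol begins with NUP, IPO, KPNA or TNPO and a digit, together with KPNB1, XPO1, XPO4, XPO6, XPO7, CSE1L, RAN, RANGAP1, RANBP1, RANBP2, RCC1, TPR, NDC1, POM121, SEC13 and SEH1L. This rule found 52 of the 11846 genes in the table, and 51 of these were among the 10813 genes tested, which had a mean of at least 0.5 FPKM (fragments normalised to transcript length and to sequencing depth). The remaining member, KPNA7, had a mean of 0.283 FPKM.

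Poly(A) RNA was sequenced from 3 libraries of AGS cells with ANXA2P1 knockdown and 3 libraries of AGS cells transfected with scr-shRNA, the negative control, all grown in medium with fetal bovine serum. The labels describe an shRNA for the control cells and only a knockdown for the others, whereas the study's methods describe knockdown by CRISPR interference, so the reagent is not settled here. The target ANXA2P1 was not analysed here, and the group labels could therefore not be checked against its level. The replicates are called biological in the labels, but nothing says that they were separate cultures from separate days, and no source used here states whether both groups were prepared together. The samples of the groups were registered separately, so a preparation batch that follows the groups cannot be told apart from the knockdown.

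The nuclear pore complex is a ring-shaped channel in the nuclear envelope, built from a Y-shaped outer ring, an inner ring, a central channel of phenylalanine-glycine-rich proteins, cytoplasmic filaments, a nuclear basket and membrane-spanning anchors. Karyopherins carry cargo through it: importin alpha proteins recognise classical nuclear localisation signals and bind importin beta, other importins and transportins bind cargo directly, and exportins carry cargo out. The small GTPase Ran sets the direction, because its GTP form is made in the nucleus by RCC1 and used up in the cytoplasm with RANGAP1 and RANBP1.

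The libraries held 19206030, 21669009 and 21357066 reads on listed genes for knockdown 1 to 3 and 22501077, 21303859 and 23132742 for control 1 to 3, recovered from the steps between the FPKM values. All 8 epithelial markers were in the table, from KRT7 at a mean of 0.687 FPKM to KRT19 at 573, with EPCAM at 239 and KRT18 at 170. Of 9 fibroblast and endothelial markers 1 was in the table (COL1A1, 1.52 FPKM), and of 9 blood cell markers 1 (LYZ, 255 FPKM). Across all genes, 12 were lower (0.111% of those tested) and 2 were higher (0.0185%) in knockdown cells at an adjusted p under 0.05 by limma with Benjamini-Hochberg adjustment. Knockdown 1 stood apart from the other libraries: it held the lowest of the 6 values for 30.7% of tested genes and the highest for 33.7%, and fold changes that moved by over 1.5 times or changed sign without it are given both ways for the genes described in detail. In bulk RNA, fewer cells of a kind and less RNA per cell cannot be told apart.

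No nuclear pore or karyopherin gene passed the adjusted threshold in either direction. At an unadjusted p under 0.05 by limma, 3 of 51 members were lower in knockdown cells, KPNA3, NUP58 and IPO5, against 5.92% of all tested genes. By that rule 1 member was higher, SEC13, against 4.71% of all tested genes. The member shares, 5.88% and 1.96%, were near and below these backgrounds. When the fold change also had to exceed 1.2, KPNA3 and NUP58 remained (3.92% of members against 3.35% of tested genes) and no member was higher (background 1.54%). The same fit on recovered reads with voom weights gave 0 members past the adjusted threshold and the same 4 genes at the unadjusted one. The median log2 fold change was −0.05 over the 51 members, with 32 negative, and 0.01 over all tested genes, of which 46.9% were negative. The 95% intervals of 46 members lay entirely between −0.5 and 0.5 on the log2 scale, and the 5 others were KPNA3, NUP35, RANBP2, TPR and XPO4.

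**Figure D1:**
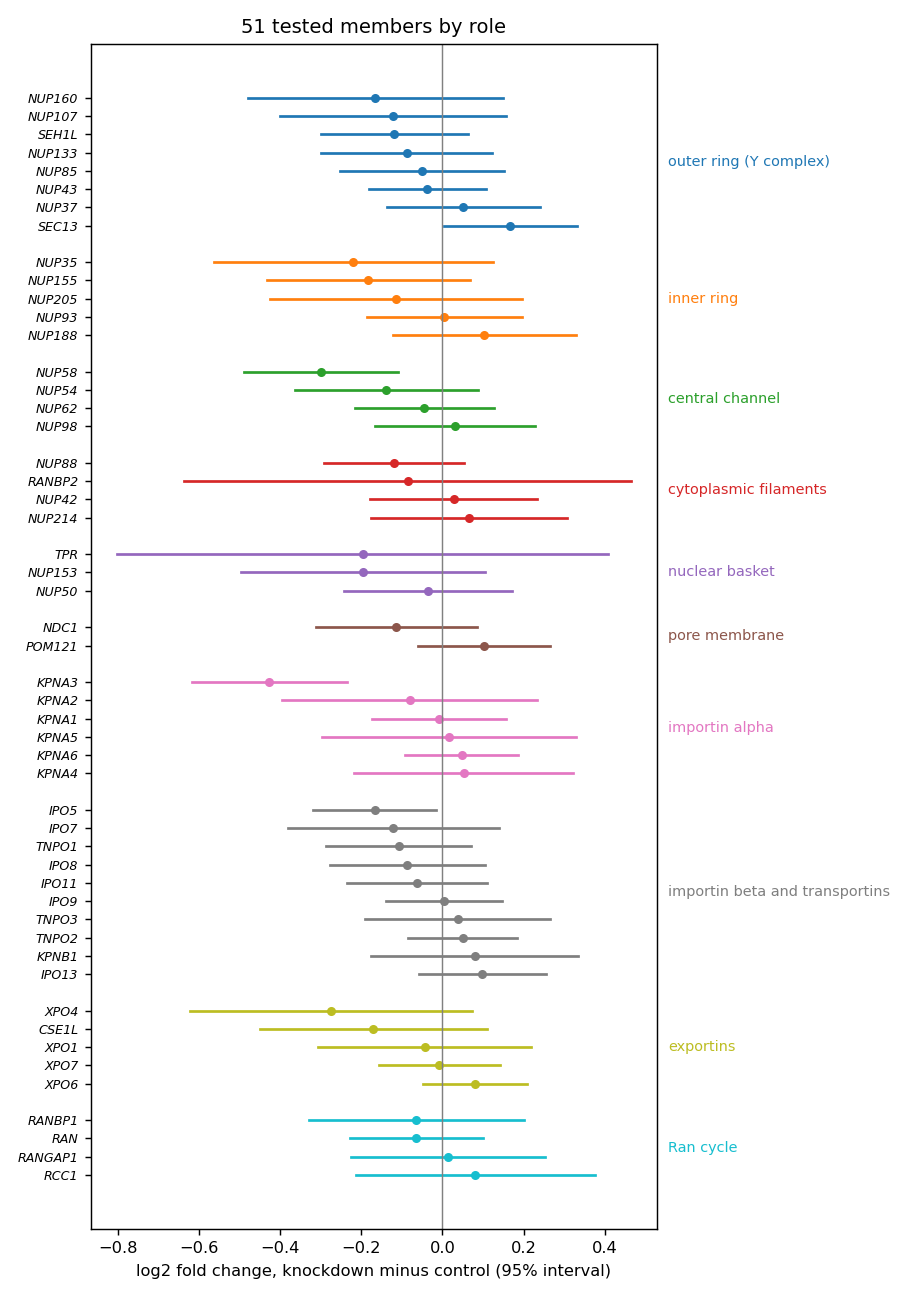
Each point is a member's log2 fold change in FPKM (knockdown minus control, 3 libraries each, horizontal axis), the line is its 95% limma interval, and rows are grouped and coloured by role. KPNA3 lies furthest from 0 at −0.43, and the intervals of KPNA3, NUP58, IPO5 and SEC13 leave out 0.

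Among the importin alpha adaptors, KPNA3 was the member with the largest difference. KPNA3 (importin alpha 4, chr13:49699307-49792921, minus strand, GRCh38, GENCODE 29) had 25.6, 30.9 and 30.7 FPKM in knockdown cells, against 39.4, 39.0 and 38.6 FPKM in control cells. The 3 knockdown libraries all lay below the 3 control libraries, and knockdown 1 was the lowest. These values rested on 2183, 2977 and 2915 reads in knockdown cells and 3933, 3690 and 3959 reads in control cells. KPNA3 averaged 29.1 ± 3.05 FPKM in knockdown cells and 39.0 ± 0.428 FPKM in control cells (SD, n = 3 each), a log2 fold change of −0.43 (SE 0.0829, 95% interval −0.62 to −0.24), or 0.744 of the control level. Its p was 0.000849 and its adjusted p 0.104 in the limma fit over all genes.

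The call on KPNA3 depended on the libraries and on the processing. Without knockdown 1 the log2 fold change was smaller, −0.34, but the adjusted p from limma was 0.0132, and KPNA3 was then 1 of 193 genes called lower (1.78% of those tested). With array weights, set from the scatter of each library around the fit, it was −0.34 (limma adjusted p 0.00127). Those weights were 0.188, 3.75 and 0.510 for knockdown 1 to 3, and 6.45% of tested genes were then called lower. With the trend on GC content and transcript length removed from each library, the log2 fold change of KPNA3 was −0.35 (limma adjusted p 0.0445). In that fit 0.417% of tested genes were called lower. Over all 15 alternatives it ran from −0.47 to −0.34 and the limma adjusted p from 0.00127 to 0.476, with 3 below 0.05.

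The promoter of KPNA3 held an E-box, CACGTG, the element that MYC and MAX bind as a pair, shown here because KPNA3 leads the members. The stretch of the RefSeq promoter shown (GRCh38.p14, minus strand, chr13:49792733-49792758) has the E-box in capitals, from −66 to −61 relative to the RefSeq start. That start differs from the GENCODE 29 start of the gene, at 49792921 on the minus strand, and the stretch lies inside the GENCODE span.
KPNA3: cgcccccggtCACGTGtcgccagcct
Of 52 members, 45 matched the RefSeq promoter table, with 60 promoters in all, each spanning 250 bases before to 50 after the start. The 6 letters CACGTG, which read alike on both strands, stood in 8 of the 60 (13.3%) against 7.26% of all 35116 promoters. Besides KPNA3 these were promoters of IPO7, NUP188, NUP50, RAN, RCC1, TNPO2 and XPO1, and none of these 7 genes passed the unadjusted threshold. Such a match is a description of letters and was not tested as a binding site.

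The other 5 tested importin alpha genes overlapped between the groups. KPNA2 (importin alpha 1), the most abundant of the family and a gene known to peak around mitosis, had 39.9, 51.4 and 52.0 FPKM in knockdown cells, against 57.7, 42.6 and 51.3 FPKM in control cells. Control 1 was highest, knockdown 1 lowest and control 2 next lowest. Its log2 fold change was −0.08 (SE 0.136, limma adjusted p 0.863), and 0.04 without knockdown 1. KPNA6, a broadly expressed importin alpha, averaged 20.9 ± 0.856 FPKM in knockdown cells and 20.3 ± 0.510 FPKM in control cells (log2 fold change 0.05, SE 0.0603). KPNA1, KPNA4 and KPNA5 had log2 fold changes between −0.01 and 0.05, and between 0.04 and 0.18 without knockdown 1. KPNA7, an importin alpha best known from oocytes and early embryos, rested on 21, 12 and 13 reads in knockdown cells and 11, 6 and 12 reads in control cells, lay below the 0.5 FPKM filter and did not overlap, with higher values in knockdown cells.

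Because FPKM is corrected for length, the 7 importin alpha levels can be set against their sum. That sum was 105, 125 and 129 FPKM in knockdown cells and 140, 123 and 131 FPKM in control cells, and the groups overlapped. KPNA3 made up 24.3%, 24.7% and 23.8% of it in knockdown cells, against 28.1%, 31.7% and 29.4% in control cells. The shares of KPNA3 did not overlap, and knockdown 1 was not apart from the other knockdown libraries on this scale. The ratio of KPNA3 to KPNA4, its closest relative in the family, was 3.06, 3.03 and 2.62 in knockdown cells and 3.90, 4.16 and 4.07 in control cells. Both measures of KPNA3 were chosen after its values were seen and are given without a test. The share of KPNA2, set as the tested measure, was 37.8%, 41.0% and 40.2% in knockdown cells and 41.1%, 34.7% and 39.2% in control cells, a difference of 1.37 percentage points (exact permutation test, two-sided, p = 0.7, where 3 against 3 libraries cannot go below 0.1). Without control 2 that difference was −0.43 percentage points, and without knockdown 1 it was 2.31.

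**Figure D2:**
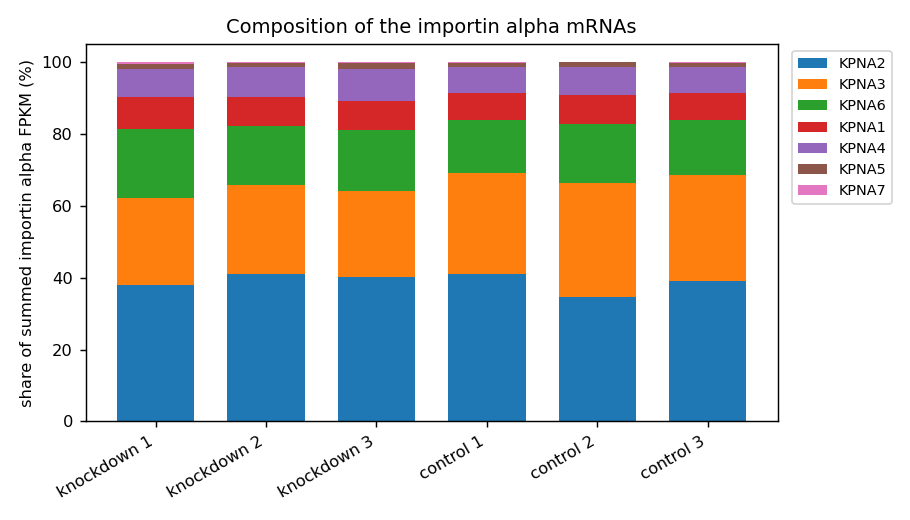
Stacked bars give each importin alpha gene's share (%) of the summed importin alpha FPKM in each library, the 3 knockdown libraries on the left and the 3 control libraries on the right. KPNA3 takes 23.8% to 24.7% in knockdown libraries and 28.1% to 31.7% in control libraries.

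Among the 4 proteins of the central channel, NUP58 was the lowest in knockdown cells relative to control. NUP58 (chr13:25301524-25349800, plus strand), which with NUP62 and NUP54 forms the channel complex rich in phenylalanine-glycine repeats, had 13.6, 15.9 and 15.9 FPKM in knockdown cells, against 19.8, 18.3 and 17.8 FPKM in control cells. The groups did not overlap. NUP58 averaged 15.1 ± 1.36 FPKM in knockdown cells and 18.6 ± 1.03 FPKM in control cells (SD, n = 3 each), a log2 fold change of −0.30 (SE 0.0826, 95% interval −0.49 to −0.11, limma adjusted p 0.242). Its partners overlapped between the groups: NUP54 had a log2 fold change of −0.14 (SE 0.0983) and NUP62 of −0.04 (SE 0.0745), which without knockdown 1 were −0.02 and 0.01. NUP98, a channel protein that also binds mRNA export factors, was at 0.03, and at 0.12 without knockdown 1. In the 15 alternatives NUP58 was called lower only when libraries were weighted, at −0.22 and a limma adjusted p of 0.0226, a setting in which 6.45% of tested genes were called lower.

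Importin beta proteins and transportins gave 5 negative and 5 positive fold changes. IPO5, an importin for ribosomal proteins and histones, had 47.6, 53.1 and 52.1 FPKM in knockdown cells, against 58.9, 56.1 and 56.5 FPKM in control cells. All knockdown values were below all control values, with knockdown 1 lowest. The log2 fold change of IPO5 was −0.17 (SE 0.0657, limma p 0.0341, adjusted p 0.419), and without knockdown 1 or any 1 of the control libraries it was past the unadjusted threshold no longer. IPO13, which imports the SUMO-conjugating enzyme UBC9, averaged 7.47 ± 0.340 FPKM in knockdown cells and 6.97 ± 0.252 FPKM in control cells (log2 fold change 0.10, SE 0.0683). KPNB1, the importin beta that works with importin alpha, had 40.7, 49.5 and 55.4 FPKM in knockdown cells and 47.9, 42.7 and 46.2 FPKM in control cells, with knockdown libraries both below and above every control library (log2 fold change 0.08, and 0.20 without knockdown 1). TNPO1, the transportin that imports hnRNP A1 and related RNA-binding proteins, had a log2 fold change of −0.11, and TNPO3, which imports serine- and arginine-rich splicing factors, of 0.04. Without knockdown 1 these were −0.04 and 0.15.

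**Figure D3:**
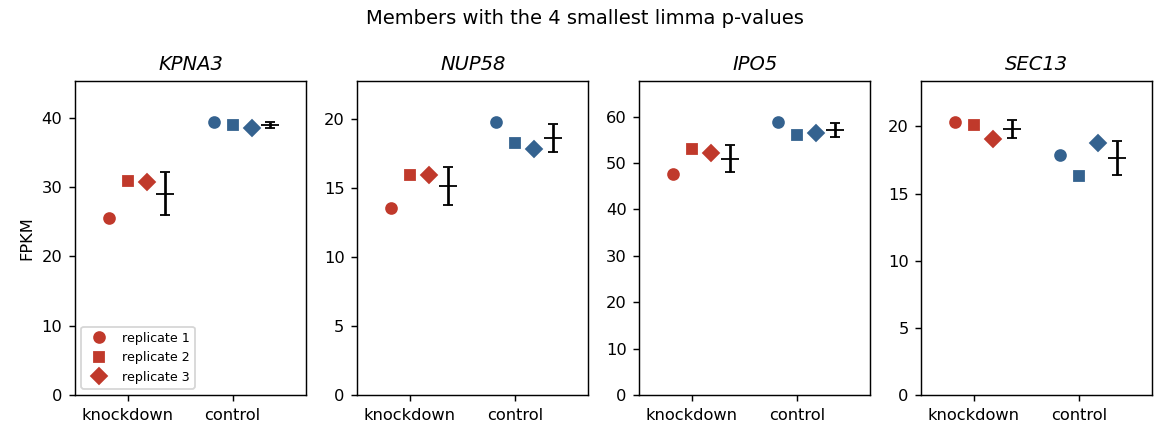
Points give FPKM (vertical axis, from 0) of KPNA3, NUP58, IPO5 and SEC13 in each library, with knockdown on the left and control on the right of each panel, symbols marking replicates and bars showing the mean and SD (n = 3). KPNA3 reaches 25.6 to 30.9 FPKM in knockdown cells and 38.6 to 39.4 FPKM in control cells, and SEC13 is the only one of the 4 with higher values in knockdown cells.

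SEC13 was the 1 member higher in knockdown cells at the unadjusted threshold. SEC13, which serves both in the outer ring and in the COPII coat of vesicles that leave the endoplasmic reticulum, had 20.3, 20.1 and 19.0 FPKM in knockdown cells, against 17.9, 16.3 and 18.8 FPKM in control cells. The groups did not overlap, although knockdown 3 and control 3 were close. Its log2 fold change was 0.17 (SE 0.0708, limma p 0.0452, adjusted p 0.458). The other outer ring genes did not follow it, and 6 of the 8 members of that ring had negative fold changes. SEH1L, which is shared with a regulator of nutrient signalling, had a log2 fold change of −0.12 (SE 0.0783), and NUP133, the most abundant of the ring at 25.6 ± 3.17 FPKM in knockdown cells and 27.1 ± 0.261 FPKM in control cells, of −0.09 (SE 0.0916). Without knockdown 1 these were −0.05 for SEH1L and 0.01 for NUP133. Including SEC13, 2 of the 51 tested members were higher without overlap (3.92%, against 9.86% of tested genes). Lower without overlap were 3 of the 51 (5.88%, against 9.13%).

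Exportins, which bind cargo together with Ran-GTP, gave 4 negative and 1 positive fold change. XPO4, an exportin for the translation factor eIF5A, had 9.36, 13.3 and 14.6 FPKM in knockdown cells, against 15.8, 14.5 and 14.2 FPKM in control cells. Knockdown 1 was far below the rest, and knockdown 3 lay among the controls. The log2 fold change of XPO4 was −0.27 (SE 0.151, limma adjusted p 0.573), and −0.08 without knockdown 1. CSE1L, which returns importin alpha to the cytoplasm and was the most abundant exportin, had 86.8, 114 and 118 FPKM in knockdown cells, against 126, 108 and 122 FPKM in control cells, with overlap (log2 fold change −0.17, SE 0.121, and −0.03 without knockdown 1). XPO6, the exportin for actin and profilin, had 18.1, 18.7 and 19.0 FPKM in knockdown cells, against 17.5, 17.7 and 17.6 FPKM in control cells. Its groups did not overlap, yet the log2 fold change was small at 0.08 (SE 0.0557, limma adjusted p 0.658). XPO1, the receptor for leucine-rich export signals, was at −0.04, and XPO7 at −0.01. Without knockdown 1 both were positive, at 0.09 and 0.03.

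The Ran cycle genes showed the smallest range of fold changes among groups of at least 4 members, −0.06 to 0.08. RAN, the GTPase itself and the most abundant member, had 132, 137 and 129 FPKM in knockdown cells, against 150, 130 and 138 FPKM in control cells. Knockdown 1 was not the lowest here, and the groups overlapped. Its 95% interval ran from −0.23 to 0.10 on the log2 scale. RCC1, the chromatin-bound exchange factor that loads Ran with GTP, had 32.3, 40.3 and 36.4 FPKM in knockdown cells, against 38.4, 28.3 and 36.8 FPKM in control cells. Control 2, and not a knockdown library, held the lowest value for RCC1, whose log2 fold change was 0.08 (SE 0.128), and 0.16 without knockdown 1. RANBP1 and RANGAP1, which act on Ran-GTP in the cytoplasm, had log2 fold changes of −0.06 and 0.01, and of 0.01 and 0.09 without knockdown 1. The reads of RAN, RANBP1 and KPNA2 may be shared with processed pseudogenes, and how the counting treated such reads is not stated.

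TPR of the nuclear basket and RANBP2 of the cytoplasmic filaments spread most within the knockdown group on the log2 scale. TPR, the coiled-coil protein that builds the basket, had 13.9, 24.8 and 32.9 FPKM in knockdown cells, against 24.9, 26.9 and 25.5 FPKM in control cells. The knockdown values lay on both sides of the controls, so that the log2 fold change of −0.20 had an SE of 0.263. RANBP2, the large filament protein and SUMO ligase, had 12.6, 22.0 and 27.4 FPKM in knockdown cells, against 20.7, 21.4 and 20.6 FPKM in control cells. It showed the order seen for TPR, with knockdown 1 lowest and knockdown 3 highest of the 6 libraries, and a log2 fold change of −0.09 (SE 0.239). RANBP2 may share reads with near-identical RGPD copies, which leaves its level uncertain. Without knockdown 1 the log2 fold changes were 0.15 for TPR and 0.23 for RANBP2, opposite in sign to the values with it, and neither passed the adjusted threshold.

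The rest of these groups and of the inner ring varied less. NUP153, a basket protein rich in phenylalanine-glycine repeats, had 19.1, 25.7 and 27.9 FPKM in knockdown cells, against 28.5, 27.0 and 26.7 FPKM in control cells (log2 fold change −0.20, SE 0.130, and −0.03 without knockdown 1). NUP50, a basket protein that helps to release cargo from importin alpha, was at −0.04 (SE 0.0898), and at 0.06 without knockdown 1. On the cytoplasmic side, NUP88 was at −0.12 (SE 0.0750) and its partner NUP214, on which mRNA export factors dock, at 0.06 (SE 0.105), the NUP214 value being 0.18 without knockdown 1. In the inner ring, which ties the outer rings to the membrane, NUP35 was at −0.22 (SE 0.149), NUP155 at −0.18 (SE 0.108) and NUP205 at −0.11 (SE 0.135), while NUP93 and NUP188 were at 0.00 and 0.10. Without knockdown 1 the negative values of the ring shrank to −0.05 for NUP35 and −0.07 for NUP155 and turned to 0.05 for NUP205, with NUP93 at 0.05 and NUP188 at 0.19. The membrane anchors diverged, with NDC1 at −0.11 (SE 0.0864, and −0.06 without knockdown 1) and POM121 at 0.10 (SE 0.0704). POM121 may share reads with its near-identical copy POM121C, which had 9.80, 10.9 and 11.3 FPKM in knockdown cells, against 9.59, 9.20 and 9.76 FPKM in control cells. None of these genes passed the unadjusted threshold in the unweighted fit of all 6 libraries, whereas NUP188, NUP214 and POM121 passed it upwards with weighted libraries. In that setting 7 of 51 members (13.7%) passed it upwards, and so did 1529 of 10813 tested genes.

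Read by library instead of by group, the members were low in knockdown 1. Relative to the control mean, their median log2 difference was −0.19, 0.01 and 0.05 in knockdown 1 to 3 and 0.06, −0.04 and 0.00 in control 1 to 3. Knockdown 1 held the lowest of the 6 values in 37 of 51 members (72.5%, against 30.7% of all tested genes). Control 1 held the highest in 23 (45.1%, against 11.8%) and knockdown 3 in 21 (41.2%, against 22.6%). Within the knockdown group, knockdown 1 was the lowest library for 47 of 51 members (92.2%, against 41.6% of tested genes). The lowest medians of knockdown 1 were in the nuclear basket (−0.52) and the inner ring (−0.41), and the median in the Ran cycle was −0.11. KPNA3 was lowest in knockdown 1 too, at −0.61, but was also low in knockdown 2 and knockdown 3, at −0.33 and −0.34, and so were NUP58, at −0.22 in both, and IPO5, at −0.11 and −0.13.

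**Figure D4:**
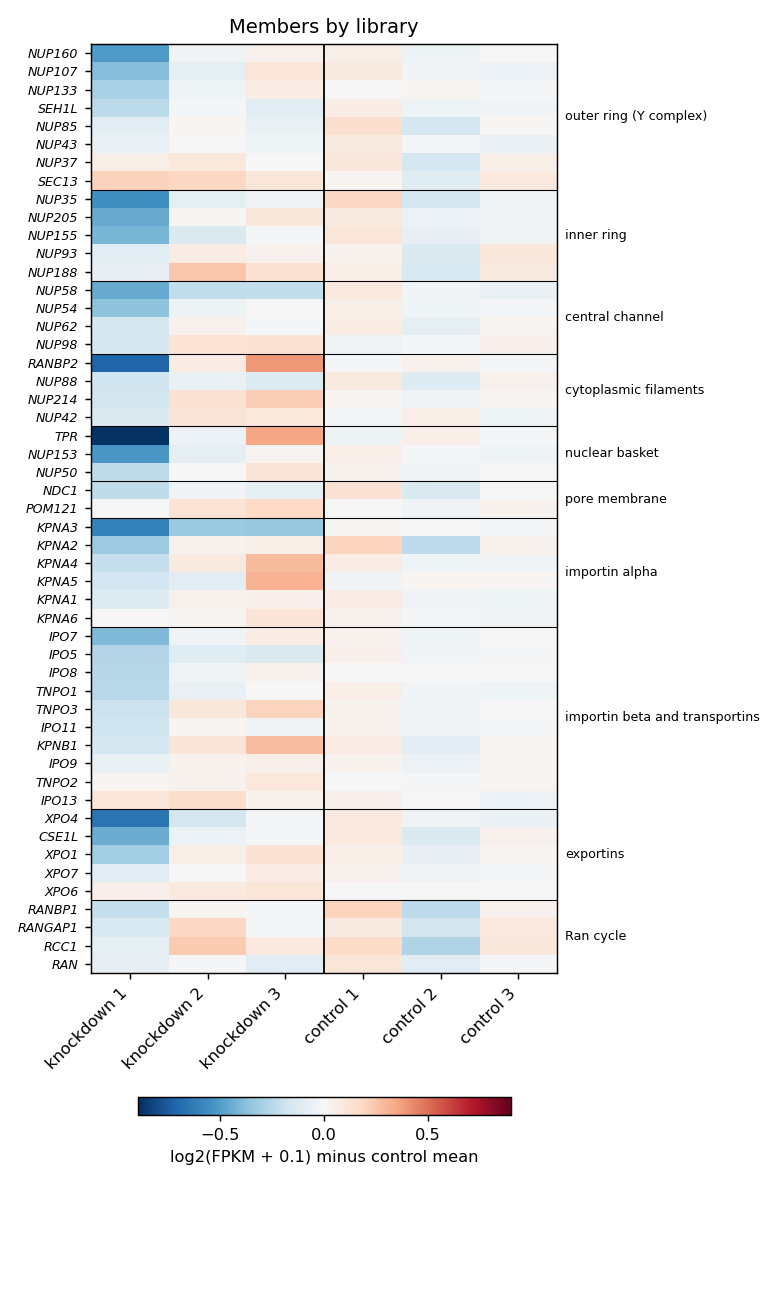
Colours give each member's log2(FPKM + 0.1) minus the mean of the 3 control libraries (blue below, red above), with knockdown libraries in the left columns, control libraries in the right columns and genes grouped by role. The knockdown 1 column is blue in 44 of 51 rows, and KPNA3 is blue in all 3 knockdown columns.

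Without knockdown 1 the median of the members was 0.04, with 17 of 51 negative. The fold change changed sign for 15 of the 51, moved by over 1.5 times for 24 and stayed within 1.5 times for 12, among them KPNA3, NUP58, IPO5, SEC13 and RAN. In that fit 7 members were higher at an unadjusted p under 0.05 by limma, KPNA4, KPNB1, NUP188, NUP214, POM121, RANBP2 and TNPO3, or 13.7% of members against 7.34% of tested genes, and 2 were lower, KPNA3 and NUP58, against 8.67%. None of the 7 passed that threshold in the unweighted fit of all 6 libraries, and 3 of them (NUP188, NUP214 and POM121) did with weighted libraries. With weighted libraries, 1529 of 10813 tested genes were higher by that rule. Without knockdown 3, 7 members were lower by that rule (13.7%, against 9.90% of tested genes), with NUP153, NUP155, TPR and XPO4 joining KPNA3, NUP58 and IPO5. Of the 51 members, only KPNA3 and NUP58 were past the unadjusted threshold in each of the 6 fits that left out 1 library. These fits share most of their libraries and are not independent, and the share of all tested genes that passed each of them is not given here.

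Base composition and transcript length moved with these library values. The longest coding transcripts of the members had a median length of 5207 bases and 43.3% GC, against 3381.5 bases and 48.6% GC for all tested genes with an annotation. Across the 51 members, the difference of knockdown 1 from the control mean correlated with GC content at r = 0.58 (rho = 0.59), and over 10792 tested genes at r = 0.57. For knockdown 3 the correlation with log2 length was r = 0.39 across members and 0.26 across those genes. Some other libraries, controls among them, gave correlations of like size across members, and others gave smaller ones. With GC content, r was 0.62 in knockdown 2, 0.10 in knockdown 3 and −0.03, −0.26 and 0.49 in control 1 to 3. With log2 length, r was −0.28 in knockdown 1, −0.18 in knockdown 2 and −0.50, 0.52 and −0.24 in control 1 to 3. Over the 10792 tested genes, r with GC content was 0.21 and −0.16 in knockdown 2 and 3 and −0.11, −0.04 and 0.19 in control 1 to 3. With log2 length, r over those genes was −0.36 and −0.05 in knockdown 1 and 2 and −0.09, 0.13 and −0.08 in control 1 to 3. These are descriptions across genes of a single library, which share its depth and preparation. A smooth trend on GC and length was fitted, in each library, to each gene's difference from its mean over all 6 libraries. The trend accounted for 38.3%, 0.939% and 21.5% of the variance of these differences in knockdown 1 to 3. In control 1 to 3 the trend accounted for 10.4%, 7.17% and 2.39%. After its removal the median of the members was −0.02, with 28 of 51 negative, KPNA3 was called (45 tested genes lower, 0.417%) and SEC13 was no longer past the unadjusted threshold, which 6.11% of tested genes passed upwards.

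**Figure D5:**
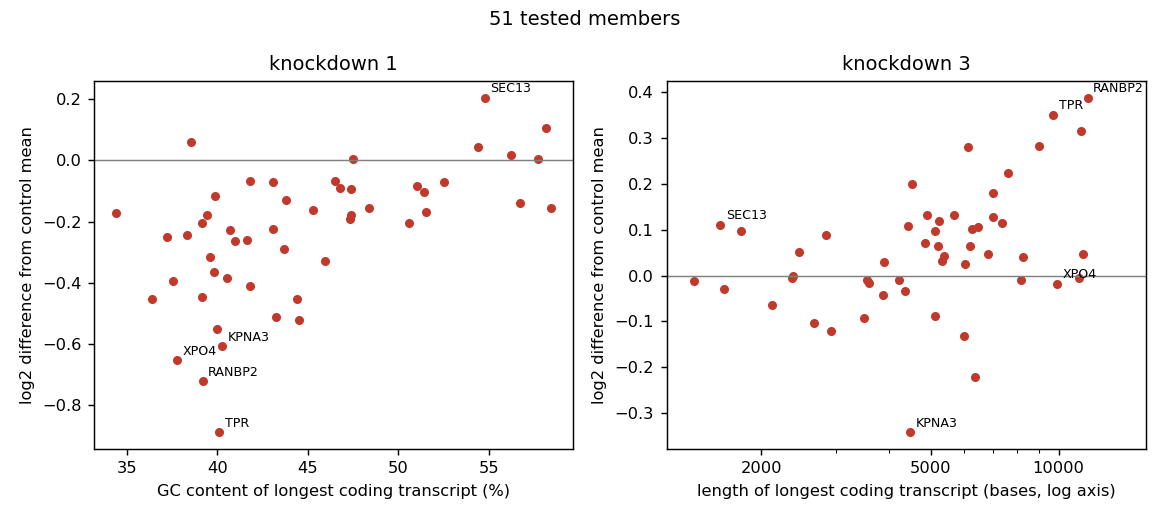
Each point is 1 of the 51 tested members. The vertical axes give the log2 difference from the control mean, in knockdown 1 against transcript GC content (%, left) and in knockdown 3 against transcript length (bases, log axis, right). TPR and RANBP2 are among the lowest in knockdown 1 and the highest in knockdown 3, and KPNA3 lies at −0.34 in knockdown 3 with a transcript of 4474 bases.

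Genes of the G2 and M phases also moved with the libraries. All 24 measured genes of that list had negative fold changes, with a median of −0.19, but none passed the adjusted threshold. At an unadjusted p under 0.05 by limma 1 of the 24 was lower, against 5.92% of all tested genes. Without knockdown 1 their median was −0.01, with 13 of 24 negative. Their median log2 difference from the control mean was −0.46, −0.02 and −0.03 in knockdown 1 to 3 and 0.17, −0.23 and 0.05 in control 1 to 3. KPNA2 gave −0.33, 0.04 and 0.05 in knockdown 1 to 3 and 0.20, −0.23 and 0.03 in control 1 to 3, with control 1 highest and knockdown 1 and control 2 lowest in both series. The part of GC content, length and G2/M genes in the members' values was not tested.

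The promoter of KPNA2 is shown for this reason, since CHR and CCAAT elements are known from promoters of genes used in mitosis. In the RefSeq promoter (GRCh38.p14, plus strand) a CHR element, TTTGAA read on the opposite strand, lay from −99 to −94 within the stretch chr17:68035626-68035651. CCAAT boxes lay from −89 to −85 within chr17:68035636-68035661 and from −58 to −54 within chr17:68035667-68035692. The first and second stretches overlap, and capitals mark the element.
KPNA2 CHR: caacgtgtttTTCAAAtccaccaatg
KPNA2 CCAAT, distal: ttcaaatccaCCAATgggcacacagc
KPNA2 CCAAT, proximal: ctcgaaccagCCAATcggaatgcgga
On either strand, TTTGAA stood in 26.7% of the 60 member promoters, against 15.2% of all promoters, and CCAAT in 41.7%, against 34.6%. These shares describe letters only.

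Transport and envelope genes outside the rule were read beside the members. Of 55 genes listed (other pore proteins, other receptors and adaptors, mRNA export factors, lamina and envelope proteins), 49 were tested and none passed the adjusted threshold. At an unadjusted p under 0.05 by limma, 3 were lower and 4 higher, against 5.92% and 4.71% of all tested genes. Their median log2 fold change was 0.01, with 22 negative, and their median difference in knockdown 1 was −0.02, where the members had −0.19. NXT2, a cofactor of the mRNA export receptor, had 3.28, 4.02 and 3.56 FPKM in knockdown cells, against 5.35, 4.87 and 5.06 FPKM in control cells. The groups did not overlap, and the log2 fold change was −0.49 (SE 0.0921, limma adjusted p 0.0961). Without knockdown 1 it was −0.42 with a limma adjusted p of 0.0291. NXF1, the mRNA export receptor that such cofactors bind, had 12.1, 12.8 and 12.4 FPKM in knockdown cells, against 11.2, 10.6 and 10.7 FPKM in control cells, again without overlap but in the other direction (log2 fold change 0.20, SE 0.0617, limma adjusted p 0.296). XPOT, the exportin for tRNA, was at −0.32 (SE 0.0847) and GLE1, which activates the mRNA export helicase at the pore, at 0.27 (SE 0.0680).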

How the data were processed

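The authors deposited 1 table of FPKM values for 6 libraries. Per the labels, reads were handled with TopHat and Bowtie2 against hg38. No source used here names the counter, its annotation or its strand setting, and 8 members overlap another protein-coding gene. Whole reads were recovered from the steps of the FPKM values for 99.99% of genes. Here, log2(FPKM + 0.1) was fitted with limma 3.58.1 (R 4.3.3; lmFit, eBayes with trend and robust settings, two-sided) for genes with a mean of at least 0.5 FPKM, with Benjamini-Hochberg adjustment over 10813 genes. Fold changes are on that scale. The fit was tested on simulated data. Precision is the spread between 3 libraries, since tested members had at least 333 reads in each library. No pair of libraries within a group was a duplicate (chi-square per degree of freedom 2.87 to 36.9). The members, lists and tests were chosen with earlier results of these data known. In each role group, the text names the pair of tested members with the smallest p and the most abundant one; others are named where counts or library values single them out, after their values were seen. Alternatives varied the pseudocount, filter, eBayes settings, weights, scaling, block and libraries; removal of a GC and length trend (splines) and voom were added after seeing the data. RefSeq (GRCh38.p14) gave promoters and GENCODE 29 gave positions.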

Additional observations from a re-analysis of the deposited data

How the results depend on the processing

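With 0 members past the limma adjusted threshold in all 6 libraries, the number called lower was 2 with array weights (KPNA3, NUP58), 1 with the GC and length trend removed (KPNA3) and 0 to 1 when each library was left out; none was called higher in any setting. Across all genes, calls numbered 14 with all libraries, 256 without knockdown 1, 5 without knockdown 3 and 0 without any other library, 0 with plain eBayes or rescaled medians, 1 with the replicate block, 57 with the trend removed and 1195 with array weights (gene-by-gene method; 0.188, 3.75 and 0.510 for knockdown 1 to 3, 1.41, 0.679 and 2.92 for control 1 to 3); the cause was not tested. When each library was left out, 2 to 7 members were lower at the unadjusted threshold, beside 425 to 1071 of 10813 tested genes. Higher members then numbered 0 to 7, beside 259 to 794 tested genes. Higher members numbered 7 with array weights and 0 with plain eBayes, rescaled medians, the trend removed or the replicate block. In the settings with 0, the tested genes higher numbered 520, 504, 659 (of 10792) and 225, in that order. With array weights, 1529 of 10813 tested genes were higher at that threshold. With the replicate block, 2 members (3.92%) and 455 of 10813 tested genes were lower at the unadjusted threshold. In that fit 0 members were past the adjusted threshold, and KPNA3 had a limma adjusted p of 0.246. Deviations of equally numbered libraries correlated at −0.34, −0.47 and −0.12, so the numbers were not taken as pairs. Other transport and envelope genes called lower were 2 with array weights and 0 to 1 when each library was left out, and called higher 4 with array weights. With array weights, 697 of 10813 tested genes were called lower and 498 higher. The difference in KPNA2 share ran from −0.43 to 2.74 percentage points when each library was left out, and reversed without control 2. Of the 27 genes named by the rule, 9 changed sign in some of the 15 alternatives, none while called.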

Other observations

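The members on chromosome 13 were chosen for mention after their values were seen. All 4 of them (KPNA3, NUP58, IPO5 and XPO4) had negative fold changes, and they include the 3 members with an unadjusted p under 0.05 in that direction. The 179 tested genes of that chromosome had a median log2 fold change of −0.04, against 0.01 over all tested genes; the median of chromosome 4 was −0.05 and that of chromosome 18 was −0.03. Over the tested genes of chromosome 13 the median difference from the control mean was −0.11, −0.03 and 0.02 in knockdown 1 to 3. All-negative members were not particular to chromosome 13, since all 3 members on chromosome 2 and all 3 on chromosome 5 had negative fold changes too.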
